A study of Homo sapiens with 16 samples.

Results

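The sites of the histone methyltransferase SETDB1 were set against those of its product, trimethylated lysine 9 of histone H3 (H3K9me3), in HCT116 cells, an established human colon cancer line, that carried an shRNA against ARID1A (shARID1A). The members are the peaks on chromosomes 1 to 22 and X of the 2 libraries with these labels, each called by the authors against input and against IgG. These 4 lists held 643404 of the 2616578 peaks in the 20 lists used, and they come from 2 of 16 samples. SETDB1 had 39245 peaks against input and 276586 against IgG, and H3K9me3 had 56886 and 270687. The other chromatin immunoprecipitation sequencing (ChIP-seq) libraries used for comparison were TRIM28 from the same cells, ARID1A, H3K9me3, TRIM28 and SETDB1 from cells with a control shRNA (shCtrl), and ARID1A, H3K9me3 and TRIM28 from cells with no shRNA in their label. All groups are HCT116 with 1 library each, so no difference has a replicate check. No label names the hairpin, says how many clones or cultures were used or gives the residual ARID1A protein and no ARID1A library of shARID1A cells was analysed here, so the loss of ARID1A was not checked.

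SETDB1 adds methyl groups to lysine 9 of histone H3. In its best known pathway, zinc finger proteins of the KRAB family bind DNA, the corepressor TRIM28 binds to them and brings SETDB1, and HP1 proteins bind the mark that SETDB1 leaves. The mark covers silent repeats and the 3' parts of many zinc finger genes. ARID1A is a DNA-binding subunit of the SWI/SNF chromatin remodeller, and the series' design asks how it relates to heterochromatin. An enzyme peak without the mark and a mark peak without the enzyme can both occur, and the lists allow both to be counted.

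Both libraries were checked against the other lists before use. A peak with a q of at most 0.05 is called strong here. Of the 12115 strong H3K9me3 peaks (input list), 65.3% overlapped a SETDB1 peak of shCtrl cells, 19.1% a SETDB1 peak of the same shARID1A cells, 8.0% an H3K9me3 peak of shCtrl cells and 2.25% an H3K9me3 peak of cells without an shRNA, all called against input. By these shares its strong sites lay more often at SETDB1 sites of the control cells than at sites of either other H3K9me3 library. The last list is small, with 11374 peaks and 15 strong, against 79404 shCtrl SETDB1 and 92063 shCtrl H3K9me3 peaks. Of the shCtrl SETDB1 peaks 47.5% were strong, against 3.47% of the shARID1A SETDB1 peaks. The shares go against the labels, and these lists cannot tell which label, if any, is wrong. The antibody products for H3K9me3 and for TRIM28 also differ between the protocol and the sample characteristics, while that for SETDB1 is the same in both. H3K9me3 below means the library so labelled. Many results are also given without the peaks of either protein that overlap a shCtrl SETDB1 peak of either list. This left 34190 SETDB1 and 36248 H3K9me3 peaks, 624 and 2924 of them strong. Of the SETDB1 peaks against input, 86.4% had a q of 1 and 3.47% (1363) were strong, against 33.0% and 21.3% for H3K9me3. The median summit of sampled peaks with a low fold held 6 fragments for SETDB1 and 7 for H3K9me3 against input, and 5 for both against IgG, so single weak peaks rest on few fragments.

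About 30% of the promoter windows at strong SETDB1 peaks held the letters ACTACAA, both with and without the mark, and 5 windows are printed as examples. They are RefSeq sequences of GRCh38.p14, 300 bases around the start, read 5′ to 3′ on the gene's strand. C1orf159 (chr1:1116040-1116339, minus strand), IFRD2 (chr3:50292380-50292679, minus strand) and PTDSS2 (chr11:450029-450328, plus strand) were taken by the rule for named sites, as leading sites without the mark (C1orf159) and with it (IFRD2, PTDSS2). The same rule took the LOC124900417 window, not printed, which held none of the motifs below. IFRD2 holds a GC box but not ACTACAA. STK25 (chr2:241508535-241508834, minus strand), at a site without the mark, and GSPT1 (chr16:11915907-11916206, minus strand), at one with it, were chosen because they hold ACTACAA, after their values were seen. Capitals mark matches, on either strand, to any of 6 motifs: ACTACAA (part of the element bound by ZNF143 and THAP11), CCGGAAG (ETS factors), GACGTCA (cyclic AMP response element), GGGCGGG (GC box), CACGTGA (E-box) and GCGCATG (NRF1). In STK25 a pair of GC boxes overlaps.
C1orf159: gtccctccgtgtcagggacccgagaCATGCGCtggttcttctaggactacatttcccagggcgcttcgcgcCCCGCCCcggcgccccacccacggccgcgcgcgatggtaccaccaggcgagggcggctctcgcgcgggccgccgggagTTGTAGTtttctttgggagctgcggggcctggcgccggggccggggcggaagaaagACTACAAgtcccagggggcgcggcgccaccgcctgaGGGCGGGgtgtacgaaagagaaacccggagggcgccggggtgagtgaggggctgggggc
STK25: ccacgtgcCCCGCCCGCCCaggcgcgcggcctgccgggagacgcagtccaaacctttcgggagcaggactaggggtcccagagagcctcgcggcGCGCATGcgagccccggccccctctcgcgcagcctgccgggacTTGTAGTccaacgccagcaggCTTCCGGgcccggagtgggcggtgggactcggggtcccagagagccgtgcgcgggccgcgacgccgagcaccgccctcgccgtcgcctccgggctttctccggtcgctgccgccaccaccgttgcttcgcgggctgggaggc
IFRD2: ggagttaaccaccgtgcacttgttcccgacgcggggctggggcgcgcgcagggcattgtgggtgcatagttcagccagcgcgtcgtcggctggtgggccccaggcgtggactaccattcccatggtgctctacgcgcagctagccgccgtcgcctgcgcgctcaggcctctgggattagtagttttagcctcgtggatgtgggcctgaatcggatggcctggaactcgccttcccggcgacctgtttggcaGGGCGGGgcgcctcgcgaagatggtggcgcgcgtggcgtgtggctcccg
PTDSS2: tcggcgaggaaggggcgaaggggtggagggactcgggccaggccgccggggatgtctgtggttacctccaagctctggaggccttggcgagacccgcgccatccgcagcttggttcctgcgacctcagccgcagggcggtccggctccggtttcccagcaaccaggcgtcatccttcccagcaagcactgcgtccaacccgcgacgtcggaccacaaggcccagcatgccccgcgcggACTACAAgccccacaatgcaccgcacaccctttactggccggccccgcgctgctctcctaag
GSPT1: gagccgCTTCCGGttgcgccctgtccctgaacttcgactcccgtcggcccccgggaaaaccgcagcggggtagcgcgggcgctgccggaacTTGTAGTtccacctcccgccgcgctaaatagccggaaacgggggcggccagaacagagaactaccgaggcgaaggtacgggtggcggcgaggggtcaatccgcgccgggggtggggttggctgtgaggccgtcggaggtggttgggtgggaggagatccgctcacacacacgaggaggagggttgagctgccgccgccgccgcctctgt

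ACTACAA lay in 2.85% of all 22131 protein-coding promoter windows and in 30.4% (92 of 303, 95% interval 25.2 to 35.9%) of windows overlapped by a strong SETDB1 peak without the mark. With the mark the share was 30.0% (24 of 80, 20.3 to 41.3%). The intervals of both classes overlap almost wholly, and both lie above the share in all windows. In windows with a strong H3K9me3 peak and no SETDB1 peak in the input list the share was 3.83% (14 of 366). Where neither control gave a SETDB1 peak it was 0 of 115, which allows up to 3.16%. The 303 windows rest on 236 distinct peaks and the 80 windows on 66, because paired genes share a start region. Among the strong shCtrl SETDB1 peaks, 6.69% of 2600 windows held ACTACAA. Without the peaks at shCtrl SETDB1 the shares were 21.2% (38 of 179 windows) without and 26.3% (5 of 19) with the mark. When the IgG lists were used for both proteins the shares fell to 10.1% of 663 windows without the mark and 13.0% of 1291 with it.

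The other motifs stood closer to their share in all windows. The ETS motif was in 17.5% of the windows without the mark, 27.5% of those with it, 26.8% of strong H3K9me3 windows without SETDB1 and 12.8% of all windows. The GC box was in 54.8%, 53.8%, 38% and 42.4% of the same classes, in that order. The E-box was in 7.59% and 7.5% of the windows without and with the mark and in 4.44% of all. The NRF1 motif was in 5.28% and 12.5% against 5.26%, and the cyclic AMP response element in 3.96% and 6.25% against 4.08%. Windows of strong SETDB1 peaks without the mark had a median of 30 CpG and those with it 28, against 21 in all windows. A match shows only that the letters are there.

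Distances from summits to the nearest ACTACAA were measured in these windows. Each peak had to overlap a 300-base window that held the motif. Short distances thus follow in part from this choice, and no expected distance was computed. In the 116 windows with a strong SETDB1 peak and the motif, which rest on 90 peaks, the median distance from summit to motif was 34.5 bp, and 67.2% were within 50 bp. In the 24 windows that also had an H3K9me3 peak, the SETDB1 summit was at a median of 33 bp and the H3K9me3 summit at 96.5 bp. Within 50 bp were 83.3% of SETDB1 summits and 12.5% of H3K9me3 summits. Here the SETDB1 peaks were chosen as strong while the H3K9me3 peaks were of any q, and each side rests on 22 distinct peaks.

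**Figure D1:**
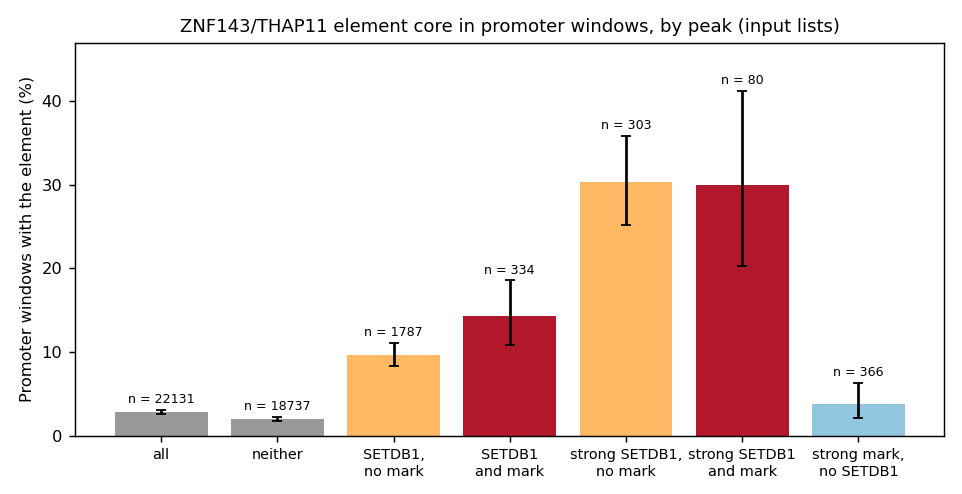
Share of RefSeq promoter windows (300 bases, protein-coding genes) that hold the ZNF143/THAP11 element core, by the peaks that overlap the window in the input lists. Bars are shares with exact 95% intervals, and n is the number of windows: strong SETDB1 windows stand at 30.4% without and 30.0% with the mark, against 3.83% for the strong mark without SETDB1.

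Over all input peaks, 11.2% of SETDB1 peaks (4396 of 39245, 95% interval 10.9 to 11.5%) overlapped an H3K9me3 peak by at least 1 bp, and 7.73% of H3K9me3 peaks (4400 of 56886, 7.52 to 7.96%) overlapped SETDB1. Among strong SETDB1 peaks the share was 52.9% (721 of 1363, 50.2 to 55.6%) against the H3K9me3 input list and 58.4% against its IgG list. With both sides strong, 41.4% of SETDB1 and 4.68% of H3K9me3 peaks were shared. The enzyme's list is the shorter one, so the same shared sites are a larger share of it. All intervals cover counting error only, and sequenced fragments without molecular identifiers are not independent molecules. Peaks at shCtrl SETDB1 sites carried much of this overlap: without them 4.50% of SETDB1 and 4.24% of H3K9me3 peaks were shared. With the shCtrl H3K9me3 list in place of the shARID1A one, 3.08% of SETDB1 peaks lay at the mark.

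The overlap was highest among the strongest peaks of either protein. In deciles 1 to 9 of SETDB1 fold enrichment, between 5.30% and 12% of peaks overlapped the mark, and in decile 10 (fold 3.61 to 24.3) 30.2% did. For H3K9me3 deciles 1 to 9 ranged from 2.85% to 11.3%, and decile 10 (fold 4.76 to 26.4) reached 25.8%. With the other protein's IgG list, SETDB1 deciles 1 to 9 ranged from 7.44% to 18.1% and decile 10 stood at 37.3%. For H3K9me3 they ranged from 7.72% to 20.4%, the latter in decile 1, and decile 10 stood at 26.3%. Without the peaks at shCtrl SETDB1 and against input, SETDB1 deciles 1 to 9 had 2.95% to 5.50% and decile 10 had 8.34%, and H3K9me3 had 2.12% to 5.05% and 8.58%. The highest folds of the 2 proteins in the input lists lay at unlike places: 18.0% of decile 10 of SETDB1 peaks, but 2.36% of decile 10 of H3K9me3 peaks, were within 1 kb of a gene start. The size of this contrast depended on the control. Strong H3K9me3 peaks had 5.28% near a start against input and 14.4% against IgG, and strong SETDB1 peaks 27.6% and 28.5%. Fold is the authors' ratio of pileup to local background at the summit and was used only to rank peaks within a list.

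**Figure D2:**
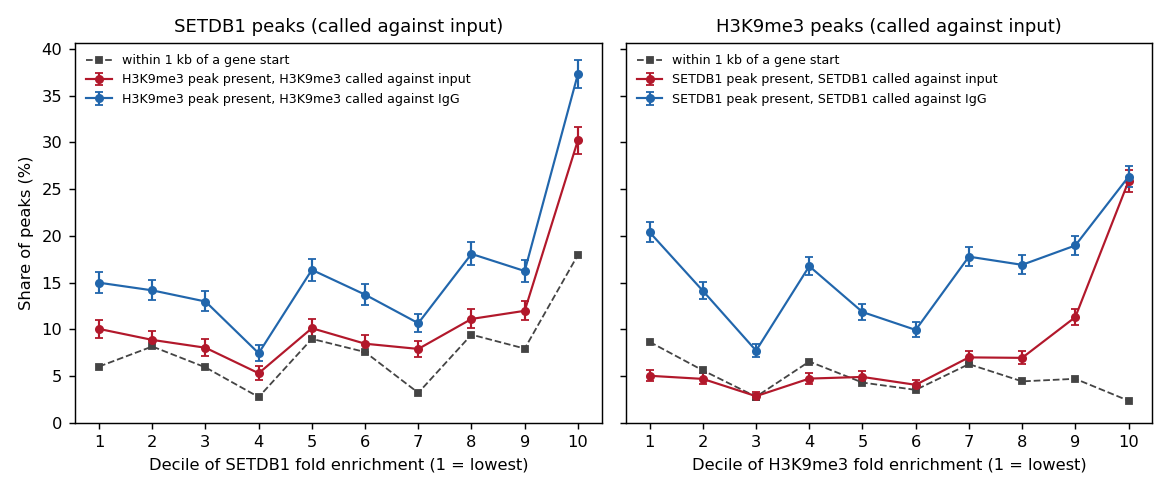
Share of peaks (%) that overlap a peak of the other protein, by decile of fold enrichment, for SETDB1 (left) and H3K9me3 (right) peaks called against input; red and blue points use the other protein's input and IgG lists with exact 95% intervals, and the dashed line is the share within 1 kb of a gene start. Decile 10 stands above the rest, at 30.2% for SETDB1 and 25.8% for H3K9me3 in red.

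Shared sites were narrow. Narrow peaks that overlap have summits near each other by selection, and no expected distance was computed. SETDB1 and H3K9me3 summits were a median of 71 bp apart over the 4396 shared SETDB1 peaks and 61.7% were within 100 bp. At strong SETDB1 peaks the median was 40 bp, and where both were strong it was 32.5 bp with 84.9% within 100 bp. The H3K9me3 peak was the wider one at 61.8% of shared sites, with a median of 330 bp against 274 bp. Without the peaks at shCtrl SETDB1 the summits were a median of 87 bp apart at all shared sites and 29.5 bp at strong SETDB1 peaks. The peaks come from narrow calls, and no broad domain call was among the lists. Across these shared sites Spearman's rho between the 2 folds was 0.36, and 0.48 where both were strong. This is a description across sites that share controls and local background.

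Over all peaks SETDB1 was wider with the mark than without it. Their median width was 274 bp (quartiles 216 and 359 bp) against 226 bp without the mark over all peaks, and their median fold was 3.16 against 2.92. The share of peaks wider than the list's median was 19.7 percentage points higher with the mark (18.2 to 21.2). Among strong peaks the widths came closer, at 357 and 334.5 bp, and the folds were 4.86 and 4.79. Without the peaks at shCtrl SETDB1 the median widths were 250 and 224 bp over all peaks, and the order turned at strong peaks, with 300.5 bp with and 331 bp without the mark. With the SETDB1 summit, a single base, required inside the mark the width difference was 18.4 points.

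By the input lists, most SETDB1 peaks without the mark had none within 10 kb. Of all SETDB1 peaks, 6.59% had their nearest H3K9me3 peak within 1 kb without touching it, 29.6% at 1 to 10 kb, 49.6% at 10 to 100 kb and 3.02% beyond. The median gap of those that did not overlap was 14040 bp, and 40.7% of them had the mark within 10 kb. Without the peaks at shCtrl SETDB1 the median gap was 22171 bp and 29.8% had the mark within 10 kb. Of strong SETDB1 peaks 52.9% overlapped the mark and 4.99% had it within 1 kb without touching it. The strong peaks that did not overlap had a median gap of 13540 bp, close to the 14040 bp over all peaks. Against the IgG list, with its larger number of H3K9me3 peaks, the median gap was 3139 bp for all and 2696 bp for strong SETDB1 peaks. There the lead statement was reversed: 85.5% of the SETDB1 peaks that did not overlap had the mark within 10 kb. From the side of the mark, strong H3K9me3 peaks without SETDB1 had a median gap of 19560 bp to the enzyme.

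**Figure D3:**
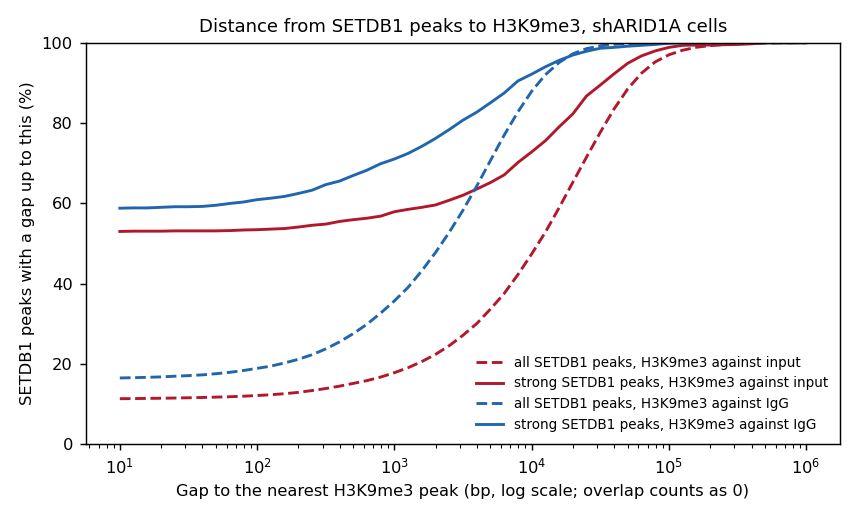
Cumulative share of SETDB1 peaks (%) by the gap to the nearest H3K9me3 peak (bp, log scale), for all (dashed) and strong (solid) SETDB1 peaks against the H3K9me3 input list (red) and IgG list (blue). The solid red line starts at 52.9% and stays nearly flat to 1 kb, while the dashed red line starts at 11.2% and climbs from about 1 kb on.

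By the input lists, strong enzyme sites without the mark were more often near gene starts than those with it. Of strong SETDB1 peaks outside chromosome 8, for which no start sites were used, 42.8% without the mark (262 of 612) and 14% with it (96 of 684) were within 1 kb of a RefSeq gene start, a difference of -28.8 percentage points (-33.4 to -24.0). The body of a protein-coding gene held 57.6% of the peaks without and 35.2% of those with the mark. Without the sites that overlap shCtrl SETDB1 the shares at gene starts were 34.8% and 18.4%. Among sites that do overlap shCtrl SETDB1 in either of its lists they were 60.8% and 12.5%, so the order was the same in both subsets. In shCtrl cells, 12.2% of strong SETDB1 peaks without and 6.35% of those with an H3K9me3 peak were near a start, and no difference between the cell states was tested.

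This order depended on the controls of both proteins: of the 4 combinations of lists, with mark peaks of any strength, it held only with both against input. Against the H3K9me3 list called with IgG, 29.8% of strong SETDB1 peaks with the mark and 24.6% of those without it were near a start, a difference of 5.15 points (0.221 to 9.96) in the other direction. Among strong SETDB1 peaks, 214 had the mark in the IgG list only, and 64.9% of these were near a start, while 139 had it in the input list only, and 2.24% were. The 582 with the mark in both lists had 16.9% near a start, and the 428 with it in neither had 32.0%. These last classes have the order of the input lists. Over all SETDB1 peaks the difference was 2.14 points towards the marked sites (9.70% against 7.57%) and 12.4 points with the IgG list. Strong SETDB1 peaks of the IgG list had 38.5% near a start with the mark and 16.5% without it. Against the input list of the mark the same peaks had 34.8% and 27.1%, a difference of 7.76 points (4.86 to 10.7).

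**Figure D4:**
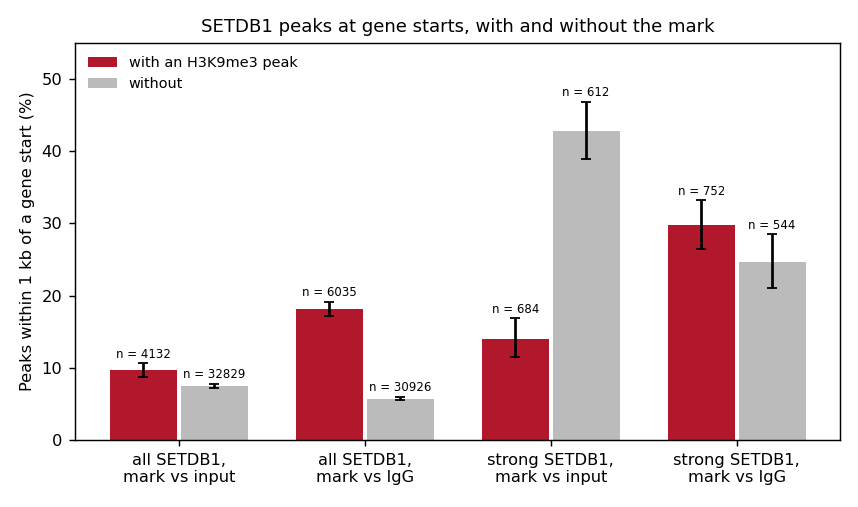
Share of SETDB1 peaks (%, called against input) within 1 kb of a gene start, with (red) and without (grey) an H3K9me3 peak, for all and strong peaks and for both H3K9me3 lists. Bars are shares with exact 95% intervals and n is the number of peaks: strong peaks without the mark stand at 42.8% with the input list and at 24.6% with the IgG list.

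TRIM28 of the same cells, the corepressor that brings SETDB1 to DNA, lay more often at SETDB1 peaks with the mark. The shares were 39.4% with and 14.8% without it over all peaks, a difference of 24.6 points (23.1 to 26.1), and 55.1% and 36.1% at strong peaks. Without the sites at shCtrl SETDB1 the strong peaks had 78.1% and 42.0%. Against the H3K9me3 IgG list the strong peaks had 45.6% and 46.9%, a difference of -1.31 points (-6.67 to 4.04). With the TRIM28 list called against IgG the order at strong peaks turned, at 32.6% with and 46.7% without the mark. SETDB1 of shCtrl cells was found at 68.1% of strong peaks with and 21.3% of those without the mark, and ARID1A of shCtrl cells (input list) at 11.9% and 20.1%. The ARID1A IgG list gave 29.3% and 48.1%. Against the H3K9me3 IgG list the ARID1A input list gave 16.3% and 15.0%, a difference of 1.34 points (-2.64 to 5.18). From the side of the mark, TRIM28 lay at 47.2% of strong H3K9me3 peaks with SETDB1 and 26.0% of those without it. Strong SETDB1 peaks lay at RNA genes in small shares, which were larger than over all SETDB1 peaks. Within 500 bp of an rRNA gene were 2.36% of strong peaks with and 3.12% without the mark, against 0.569% and 0.0947% over all. Within 500 bp of a tRNA gene the shares were 1.39% and 0.467%, against 0.364% and 0.0344% over all. For strong H3K9me3 peaks the rRNA shares were 0.691% (16 of 2314) with the enzyme and 1 of 9801 without it.

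Sites that held under both controls were used to name genes. Strong SETDB1 peaks in both lists with no H3K9me3 peak in either numbered 323, and those with H3K9me3 in both numbered 367. Strong H3K9me3 peaks of both lists with no SETDB1 in either numbered 6373. Near a gene start were 41.4%, 26.2% and 2.45% of these sites, in the same order. A SETDB1 peak of shCtrl cells lay at 14.9%, 68.1% and 63.9%.

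Where a start was on record, the leading enzyme sites without the mark lay within 1 kb of it. C1orf159 led with a SETDB1 fold of 24.3 at chr1:1115919-1116612 (694 bp), with the summit 125 bp from its start. The next site had a fold of 24.0 at chr1:26696374-26697576 and was assigned to LOC124900417, whose start lies 692 bp from the summit, but it also overlaps the 5′ part of ARID1A itself. TCEA2, a transcription elongation factor, had 15.3 (summit 142 bp from the start), and PHF13, a reader of methylated histone H3, 13.1. TMEM11-DT had 13.1, FAM222A 12.7 and PLEKHA1, a membrane lipid-binding protein, 12.3. DGAT1, which makes triglycerides, had 11.3, and PANK4, of the pantothenate kinase family, and LOC107985788, beside the STK25 start shown above, had 10.8 each. ARID1A peaks of shCtrl cells overlapped 8 of these 10 sites and shCtrl SETDB1 1, at PLEKHA1. Over whole sets, ARID1A peaks of shCtrl cells (input list) overlapped 21.4% (69 of 323) of the sites without and 16.1% (59 of 367) of those with the mark. With the ARID1A IgG list these shares were nearly equal, at 46.7% (151 of 323) and 46.0% (169 of 367). Of the shCtrl ARID1A peaks against input, 97.5% had a q of 1.

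The leading enzyme sites with the mark are named by SETDB1 fold, and folds of the 2 libraries are given side by side without comparing them. IFRD2, a ribosome-associated protein, had 22.9 for SETDB1 and 4.02 for H3K9me3 at chr3:50291928-50292719, 87 bp from its start. LOC124907874 had 16.7 and 7.73. PTDSS2, which makes phosphatidylserine, had 16.2 and 2.26 with the summit 4 bp from its start, and GSPT1, a translation termination factor, 14.5 and 4.73. ARV1, a lipid transport protein of the endoplasmic reticulum, had 11 and 1.93, and SYT5, a synaptotagmin, 10.4 and 4.49. RTN2, LOC101928344 and GPT2, a mitochondrial aminotransferase, had SETDB1 folds of 12.2, 10.4 and 10.4.

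The leading mark sites without the enzyme were taken, by the rule, among those in genes. Over the whole set 38.2% (2432 of 6373) lay in the body of a protein-coding gene. TMEM182 had an H3K9me3 fold of 20.3 at chr2:102801039-102801552, 39275 bp from its start, and FAM163B 17.3. SLC6A11, a GABA transporter, had 14.3, SCD5, a fatty acid desaturase, 14.3, and XRRA1, LOC93463 and LOC124903718 had 13.9, 14.8 and 13.9. SRGAP2, SRGAP2C and SRGAP2B had 16.6, 15.1 and 13.6 at nearly equal distances from their starts (167684, 167572 and 167837 bp). These are near-identical copies between which reads can be split, so they count as 1 uncertain observation. A SETDB1 peak of shCtrl cells overlapped all 10 sites, and their H3K9me3 folds against IgG were lower, from 5.20 (FAM163B) to 12.1 (SRGAP2C).

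ARID1A, the gene targeted by the shRNA, held many SETDB1 peaks. Its body extended by 1 kb had 13 SETDB1 peaks against input, 10 of them strong, with a highest fold of 24.0, and 2 H3K9me3 peaks of which 1 was strong. Of the 10 strong SETDB1 peaks 1 overlapped H3K9me3 against input and 4 against IgG. One of them, at chr1:26774322-26775202, had a SETDB1 fold of 13.7, an H3K9me3 fold of 2.5 and a TRIM28 fold of 5.71, 78687 bp from the start. The site at the start had a TRIM28 fold of 10.5 against input and of 15.5 against IgG, the highest of that list. It also overlapped an ARID1A peak of shCtrl cells (input list). Whether the peaks in this gene reflect binding was not tested. The SETDB1 gene held 3 SETDB1 and 2 H3K9me3 peaks, none strong against input. TRIM28 held none of either against input, and against IgG it held 3 SETDB1 and 2 H3K9me3 peaks, 1 of the latter strong.

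Genes were next counted by the peaks in their body extended by 1 kb. Of 19970 protein-coding genes 43.7% had a SETDB1 peak, 46.8% an H3K9me3 peak, 29.7% both, 14% SETDB1 only and 17.1% H3K9me3 only, all against input. A gene with both need not have them at the same site. In the longer IgG lists most genes had both (SETDB1 83.6%, H3K9me3 85.3%, both 78.9%, SETDB1 only 4.72%, H3K9me3 only 6.45%), so the input lists are used. All genes named below with SETDB1 only have an H3K9me3 peak in the IgG list, so "only" refers to the input lists. Both were in 22.3% of all genes without the peaks at shCtrl SETDB1. By strong peaks 3.91% had SETDB1, 17.4% H3K9me3, 1.54% both, 2.37% SETDB1 only and 15.9% H3K9me3 only. Of 15811 gene starts extended by 1 kb, 16.9% had SETDB1, 14.8% H3K9me3, 4.45% both, 12.5% SETDB1 only and 10.3% H3K9me3 only, against input. Long genes have more room for either, so lists are read beside their gene length (median 24190 bp over all genes).

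Zinc finger genes, classic targets of TRIM28 and SETDB1, were counted by chromosome. On chromosome 19, 54 of 246 (22%) had both, 21 SETDB1 only and 59 H3K9me3 only. On other chromosomes 118 of 263 (44.9%) had both, 29 SETDB1 only and 48 H3K9me3 only. Of all genes 29.7% had both. By strong peaks against input the groups were closer, with both in 10 (4.07%) and 14 (5.32%), against 1.54% of all genes. In the IgG lists 64.6% and 90.5% had both, against 78.9% of all genes. Median gene lengths were 23152 and 24694 bp. Both were found in 17 (6.91%) and 79 (30.0%) without the peaks at shCtrl SETDB1, against 22.3% of all genes. ZNF274, whose protein brings this complex to zinc finger genes, had folds of 8.56 for SETDB1 and 5.39 for H3K9me3. ZNF444 had 9.97 and 4.12, ZNF77 7.66 and 3.87, ZNF512B 23.7 and 4.03, ZNF75A 9.96 and 4.77, and ZNF286A 9.55 and 6.59, all strong for both. ZNF628 and ZNF653 had SETDB1 only, at 4.54 and 4.51. ZNF668 and ZNF646 share 1 SETDB1 peak of 4.35. At gene starts the order of the groups changed in the input lists only. There 20 of 216 starts on chromosome 19 had both (9.26%), against 13 of 214 on other chromosomes (6.07%) and 4.45% of all. In the IgG lists 45.4% of starts on chromosome 19 and 61.2% on other chromosomes had both, against 47.9% of all. By strong peaks against input 2 starts in each group had both.

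Genes of the heterochromatin machinery and SWI/SNF are longer than the median gene. Of 30 writers and readers of heterochromatin 14 (46.7%) had both, 3 SETDB1 only and 6 H3K9me3 only, with a median length of 53050 bp, and SWI/SNF genes had 45603 bp. ATF7IP, the partner that stabilises SETDB1, had 5.43 for SETDB1 and 13.0 for H3K9me3. TASOR, a subunit of the HUSH silencing complex, and MORC2, which acts with it, had SETDB1 folds of 5.58 and 4.96 and H3K9me3 folds of 3.10 and 3.15. CBX1, an HP1 protein, and UHRF1 had SETDB1 only, at 4.43 and 3.19. Of 28 SWI/SNF genes 12 (42.9%) had both and 8 SETDB1 only, among the latter BRD9 (3.82) and BRD7 (3.49). BCL7A and SS18L1 had both, with 3.61 for SETDB1. Of all protein-coding genes 29.7% had both. Without the peaks at shCtrl SETDB1 both were in 7 heterochromatin genes (23.3%) and 10 SWI/SNF genes (35.7%), against 22.3% of all genes. At gene starts 9 of 26 heterochromatin genes and 9 of 24 SWI/SNF genes had SETDB1, against 16.9% of all starts.

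Of 78 ribosomal protein genes, which are short and highly transcribed, 25 had H3K9me3 only, 11 SETDB1 only and 11 both (14.1%, against 29.7% of all genes). At their starts 26 of 63 (41.3%) had H3K9me3 and 14 had SETDB1, against 14.8% and 16.9% of all starts. Both were at 8 of these starts (12.7%), against 4.45% of all. Over gene bodies the order turned by strong peaks against input (2.56% against 1.54%) and in the IgG lists (92.3% against 78.9%). Without the peaks at shCtrl SETDB1 2 genes had both (2.56%, against 22.3% of all genes) and 8 H3K9me3 only. RPL15 had 4.76 for SETDB1 and 2.90 for H3K9me3, and RPSA had 4.31 and 3.75. Of 25 p53 target genes 10 had SETDB1 only, 7 both (28%) and 3 H3K9me3 only, with DDB2 (3.34) and BTG2 (3.25) among those with SETDB1 only against input. In the IgG lists all 25 had both. Interferon and RNA-sensing genes had 3 of 34 (8.82%) with both, IFI44L, OAS1 and RIGI, and 8 with H3K9me3 only. IFIH1, a sensor of double-stranded RNA, had SETDB1 only at 3.99. Of 66 histone genes 5 (7.58%) had both, and H2BC13 and H2AC13 share 1 peak. Median gene lengths were 4905 bp for ribosomal protein, 24764 bp for p53 target, 17543 bp for interferon and RNA-sensing and 494 bp for histone genes.

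Of 392 olfactory receptor genes, with a median length of 2938 bp, 13 had both (3.32%, against 29.7% of all genes) and 342 neither. In the clustered protocadherins 33 of 53 genes (62.3%) had both, but these genes share a long 3′ part, so PCDHGA1, PCDHGA2 and PCDHGA3 all have the same pair of peaks (3.61 and 3.60). Of 39 HOX genes 3 (7.69%) had both, among them HOXA10 with 2.53 for SETDB1 and 4.76 for H3K9me3. Of 27 imprinted genes 10 (37%) had both, led by PEG10 (4.86 and 4.10), and GNAS had SETDB1 only (3.14). Of 30 germline genes 13 (43.3%) had both, with TDRD9, of the piRNA pathway, at 4.36 and 9.44, and DDX4 had SETDB1 only at 3.65. Of 28 intestinal and WNT genes 9 (32.1%) had both, among them CDX2 (3.16 and 3.98), and CTNNB1 had SETDB1 only at 2.60. Median gene lengths were 110198 bp for protocadherin, 3785 bp for HOX and 23970 bp for imprinted genes. They were 59415 bp for germline and 34904 bp for intestinal and WNT genes.

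**Figure D5:**
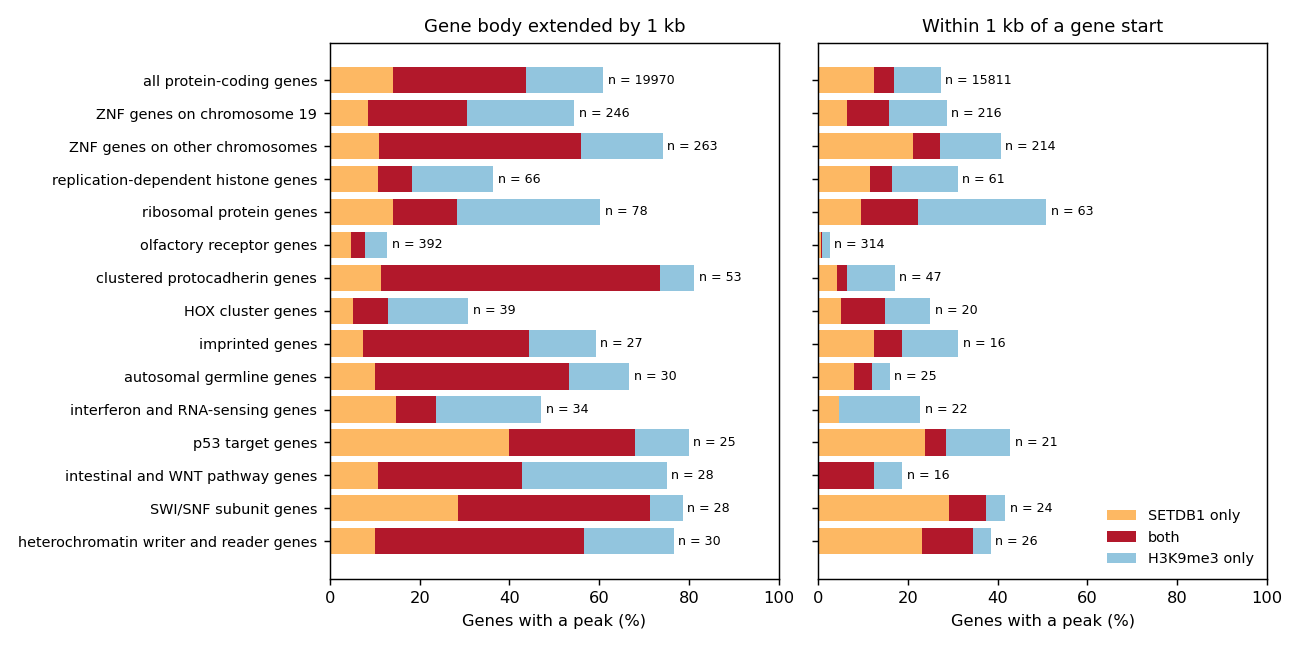
Share of genes (%) with a SETDB1 peak only, both, or an H3K9me3 peak only in the input lists, for all protein-coding genes and 14 gene lists, in the gene body extended by 1 kb (left) and within 1 kb of a gene start (right); n is the number of genes. Both stands at 29.7% of all genes on the left and 4.45% on the right, and zinc finger genes on other chromosomes stand at 44.9% on the left.

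Chromosomes differed in how often the enzyme lay at the mark. The share of SETDB1 peaks with H3K9me3 was lowest on chromosome 13 (9.58%, 7.80 to 11.6%) and highest on chromosome 19 (18.9%, 16.3 to 21.8%). This pair was picked by the same values as the extremes of all chromosomes, so its intervals do not test the difference. Without the peaks at shCtrl SETDB1 chromosomes 13 and 19 had 3.54% (2.40 to 5.02%) and 10.8% (8.40 to 13.7%). Against the IgG list chromosome 19 had 30.2%. It also had the largest share of SETDB1 peaks near a gene start, 26.4%. Its strong SETDB1 peaks per Mb of covered sequence were the most, 1.86 against 0.510 over all chromosomes, with chromosome 21 close at 1.81. Among strong SETDB1 peaks the share with the mark on chromosome 19 was 42.1%, below the 52.9% over all and the 57.1% on chromosome 13 (12 of 21). The range ran from 25% on chromosome 21 (11 of 44) to 67.2% on chromosome 7 (43 of 64). There were 1.32 H3K9me3 peaks per SETDB1 peak on chromosome 4 and 2.33 on chromosome X, against 1.45 over all. Chromosome X had few of both, with 3.26 SETDB1 and 7.59 H3K9me3 peaks per Mb against 14.7 and 21.3.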

How the data were processed

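Peaks were called per library; the submitters' processing notes name MACS2 2.2.7.1 and, besides it, Bowtie2 2.2.5 and FastQC 0.11.9, with the build GRCh38. Their options are not stated, and the control of each list was read from its name. Each peak's fold enrichment (a ratio) and its −log10 p and −log10 q are the authors' deposited values. The members, gene lists and tests were chosen with earlier results of these data known. From the lists, overlaps of at least 1 bp were counted on chromosomes 1 to 22 and X, with the lists called against input as the main ones. Strong means q of at most 0.05. Shares have exact Clopper-Pearson and differences Newcombe 95% intervals. No test between groups was made, since each has 1 library. Start sites, promoters and gene bodies came from RefSeq tables of GRCh38.p14, without exons or repeats. Start sites on chromosome 8 were not used. Named sites were, per set, the 10 highest folds in a protein-coding or lncRNA gene, 1 per gene, and from each gene list up to 3 members with both proteins and up to 2 with SETDB1 only, by SETDB1 fold, a selection of which is printed, and ARID1A, TRIM28 and SETDB1. Depth was not stated, and fragments at summits were recovered from fold and p in 99.5% or more of 400 peaks drawn from each list, within 0.005 in −log10 p. Overlap and interval code was tested on simulated peaks. Alternatives changed the control, the threshold and the overlap. Python 3.11.15, numpy 2.4.6, pandas 2.3.3 and scipy 1.17.1 were used.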

Additional observations from a re-analysis of the deposited data

How the results depend on the processing

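The control and the threshold moved nearly every value. In the order SETDB1 peaks with the mark, H3K9me3 peaks with SETDB1, and peaks without the mark that have it within 10 kb (11.2%, 7.73% and 40.7% in the report), the values were 17.6%, 17.9% and 86.6% with IgG lists, 16.2%, 2.37% and 85.5% with SETDB1 against input and H3K9me3 against IgG, 3.33%, 16.1% and 35.4% with these exchanged, 9.17%, 6.02% and 34.8% with both controls required, 41.4%, 4.68% and 17.1% at a q of at most 0.05, 13.2%, 13.2% and 10.3% for the 10000 top peaks per list, and 8.83%, 5.49% and 42.2% with 50% overlap. The width difference of 19.7 points became 21.7 with both controls, 2.91 at q of at most 0.05, 23 for the top peaks and 17.9 with 50% overlap. The TRIM28 difference of 24.6 points became 21.7, 15.6, 22.9 and 14.8 with the 4 control settings in that order, 9.70 at the q threshold and 12.8 for the top peaks. The gene start difference of 2.14 points became 12, 12.4, 12 and 5.46 with the same 4, and changed sign to -32.1 at the q threshold, -7.56 for the top peaks and -0.705 with 50% overlap. The cause was not tested.

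Alternatives chosen after seeing the data gave 8.78% of SETDB1 peaks with their summit in a mark peak, and, without peaks at shCtrl SETDB1, 4.50%, 4.24% and 29.8% for the first 3 values, 11.7 points for the width difference and 3.73 points for the gene start difference. With the shCtrl H3K9me3 list the share was 3.08%. Of 51 such values over all alternatives, 6 stayed within the interval of the value in the report: 4 of the width difference (3 control settings and the summit rule) and 2 of the TRIM28 difference (50% overlap, and without peaks at shCtrl SETDB1). Of 99 folds of named genes, 21 moved by more than 1.5 times against IgG. No paired analysis was possible because each group has 1 library. Sites held few fragments, so a missing peak is not an absent protein.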
